A study of Mus musculus with 6 samples.

Results

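The cofactors and modulators of the Notch pathway were followed as 10 genes, chosen by symbol out of 26981 genes with a count in any of the 5 deeper libraries: Rbpj, Maml1, Maml2, Maml3, Dtx1, Dtx3, Dtx4, Nrarp, Lfng and Mfng. All 10 were present and all 10 passed the filter on low counts. The RNA came from samples labelled as mesenchymal stromal cells of mouse bone marrow, in 3 libraries of Hes1 knockout mice (Hes1 KO) and 3 of wild-type mice (WT), all on a C57BL/6 background. The Hes1 KO mice came from floxed Hes1 mice bred with Prx1Cre mice, whose recombinase is driven by the Prx1 promoter in limb bud mesenchyme and part of the craniofacial mesenchyme. The labels call these animals knockout, but the protocol text, the same for all 6 samples, has RNA from heterozygous Hes1fl/+ mice, so how many alleles were deleted is unknown here. The sources used here do not give the ages of the mice, whether the WT mice carried Cre or a floxed allele, or whether each library came from its own animal, and p-values therefore measure the spread between libraries only.

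Notch receptors are cut after binding a ligand on a neighbouring cell, and the released intracellular part enters the nucleus. There it binds the DNA-binding protein RBPJ and a Mastermind-like coactivator (MAML1, MAML2 or MAML3), which turns RBPJ from a repressor into an activator of genes such as Hes1. The fringe enzymes LFNG and MFNG add a sugar to the receptor in the Golgi and so change which ligands it answers to, the Deltex proteins are ubiquitin ligases that act on Notch signalling, and NRARP is a small feedback inhibitor that is itself a Notch target. In blood formation the pathway is best known for directing lymphocyte fates, T cells in place of B cells and marginal zone B cells in the spleen.

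Start-site sequences from RefSeq were matched for 7 of the 10 genes. Those of the 3 genes that fell in Hes1 KO (values below) are shown, so that the letters around their starts can be compared. Each runs 5′ to 3′ on the gene's strand from 250 bases before to 50 bases after an annotated start on GRCm38.p6, the build of that table and not the GRCm39 of the counts. Capitals mark the 6-base RBPJ core TGGGAA on either strand.
Maml2, first start, chr9:13297708-13298007, plus strand: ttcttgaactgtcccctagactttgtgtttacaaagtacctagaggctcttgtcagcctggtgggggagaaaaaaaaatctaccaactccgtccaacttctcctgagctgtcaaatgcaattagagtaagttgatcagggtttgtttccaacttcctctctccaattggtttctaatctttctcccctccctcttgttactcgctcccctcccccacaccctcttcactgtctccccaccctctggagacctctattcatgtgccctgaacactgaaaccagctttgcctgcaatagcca
Maml2, second start, chr9:13662210-13662509, plus strand: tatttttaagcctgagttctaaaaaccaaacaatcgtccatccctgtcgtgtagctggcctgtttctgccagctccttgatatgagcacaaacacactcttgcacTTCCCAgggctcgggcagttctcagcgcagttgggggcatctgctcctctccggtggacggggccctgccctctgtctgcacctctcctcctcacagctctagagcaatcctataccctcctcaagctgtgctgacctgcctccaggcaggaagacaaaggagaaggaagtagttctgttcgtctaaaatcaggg
Maml3, chr3:52104957-52105256, minus strand: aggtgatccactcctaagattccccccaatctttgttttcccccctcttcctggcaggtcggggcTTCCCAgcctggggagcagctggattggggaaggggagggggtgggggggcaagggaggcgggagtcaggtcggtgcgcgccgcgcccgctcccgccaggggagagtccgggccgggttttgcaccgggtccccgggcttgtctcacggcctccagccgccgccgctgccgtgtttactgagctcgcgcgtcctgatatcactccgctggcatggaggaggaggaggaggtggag
Dtx1, chr5:120711620-120711919, minus strand: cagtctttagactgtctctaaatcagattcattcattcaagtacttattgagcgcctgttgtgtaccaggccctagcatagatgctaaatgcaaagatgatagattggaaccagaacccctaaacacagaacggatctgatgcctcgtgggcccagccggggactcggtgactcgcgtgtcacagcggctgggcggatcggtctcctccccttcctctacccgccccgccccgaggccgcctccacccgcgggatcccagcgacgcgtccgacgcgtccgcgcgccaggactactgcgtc
The core was in 1 of the windows of Maml2 and in that of Maml3, and not in that of Dtx1. Of 32851 promoter windows of this length, 25.6% held it. The letters CACGCG, a class C site of the HES repressors, were in the Dtx1 window on the opposite strand, at -77 from the start, and 9.27% of windows held them on either strand. Members that did not pass held such matches too. The core was in the windows of Rbpj and Lfng, and CACGCG was in that of Lfng, at -55. Neither was in the windows of Maml1 and Nrarp. A match is a description of the window only.

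The libraries differed strongly in depth. The Hes1 KO libraries held 20563116 to 22131465 counts, WT replicate 2 held 5812598 and WT replicate 3 held 12109170, while WT replicate 1 held 66167. A single count in WT replicate 1 was worth 9.45 scaled CPM (CPM, the counts relative to the total of the library, divided by the TMM scaling factor of the library), so its counts are given apart. The TMM factor of WT replicate 3 was 0.397, against 0.976 to 1.2 in the other 4 deep libraries, so its levels depend on the scaling more than theirs. In that library erythroid markers took 42.5% of all counts. The stromal marker list summed to between 0.000421% and 0.00421% of counts in every library, and Prrx1, whose promoter drives the Cre, had 0 to 2 counts, so the data go against the labelled cell type. Neutrophil markers took 4.62% to 12.3% in Hes1 KO against 0.964%, 1.42% and 0.0338% in WT replicates 1, 2 and 3. B cell markers took 0.0969% to 0.169% in Hes1 KO against 0.542% and 0.279% in WT replicates 2 and 3. In WT replicate 1 they took 0.0257%, below every Hes1 KO library. In such mixtures fewer cells of a type and less RNA per cell cannot be told apart. For the targeted gene Hes1, 185, 220 and 255 reads were counted in Hes1 KO, against 0, 310 and 345 in WT replicates 1, 2 and 3. The scaled levels were 7.11, 10.7 and 10.8 CPM in Hes1 KO against 44.4 and 71.8 CPM in WT replicates 2 and 3, and the 0 counts of WT replicate 1 do not check its label.

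Without WT replicate 1, in the fit of 3 Hes1 KO and 2 WT libraries (the 5-library fit), Maml2, Maml3 and Dtx1 fell in Hes1 KO and no member rose. The fall was 10.6-fold for Maml2, 7.4-fold for Dtx1 and 2.81-fold for Maml3 (edgeR quasi-likelihood test with Benjamini-Hochberg adjustment over 16190 genes, adjusted p = 0.0294, 0.03 and 0.0414). These 3 of 10 members stand beside 8.09% of all tested genes that fell and 7.44% that rose. The median log2 fold change of the members was -0.80, against 0.02 over all genes tested, and 8 of the 10 had lower levels in Hes1 KO, against 49.3% of all genes. With all 6 libraries 0 of the 10 passed, as did 0% of 14756 genes. At an unadjusted p under 0.05 the same edgeR fit gave 4 of the 10 members, Maml1, Maml2, Maml3 and Dtx1, all lower in Hes1 KO, where 8.12% of all genes were lower at that level and 14.9% differed in either direction. With all 6 libraries limma-voom called 0 members, and DESeq2 called 2, Maml2 and Dtx1, both lower, where 3.74% of the genes it tested fell. The 5-library calls also needed all 3 Hes1 KO libraries, since leaving out any 1 of them gave 0 calls among all genes (adjusted p of Maml2 0.108 to 0.132). They needed TMM or a like scaling as well, since library size alone, which moved the median of all genes to 0.44, gave 0.

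**Figure D1:**
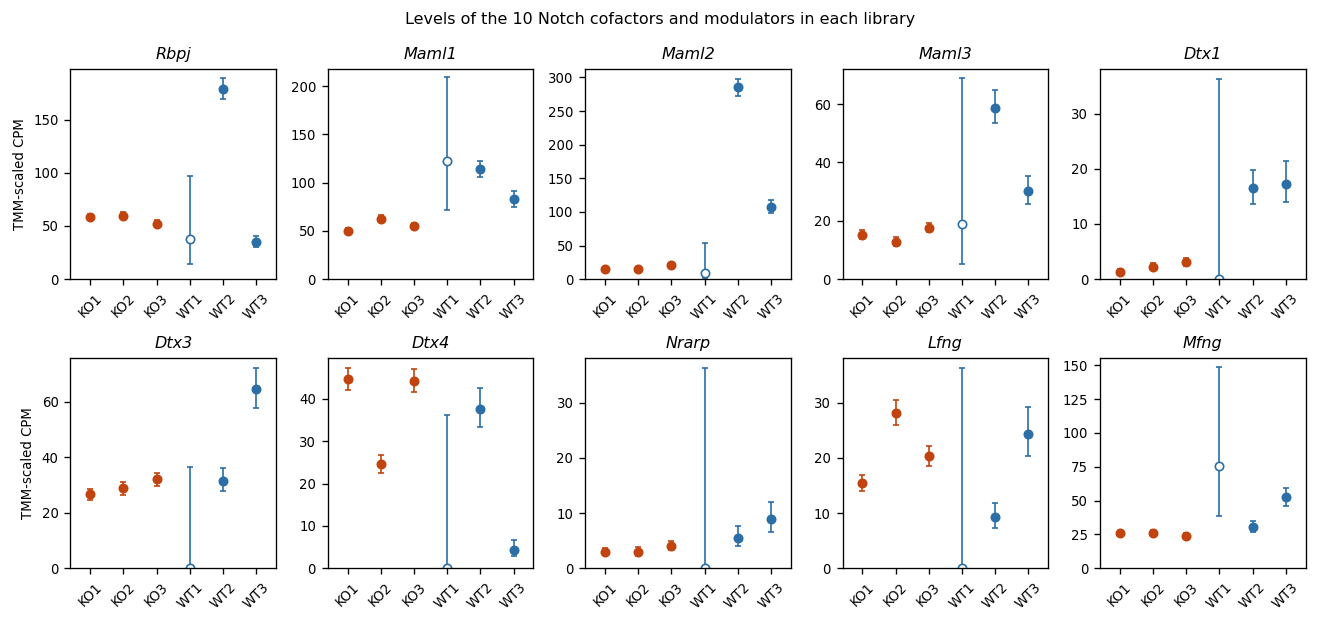
TMM-scaled CPM (vertical axis, linear from 0) of each of the 10 genes in the Hes1 KO libraries (red, KO1 to KO3) and WT libraries (blue, WT1 to WT3), with Wilson 95% intervals of the counts as bars. The hollow point is WT replicate 1, whose intervals span most panels; Maml2 and Dtx1 sit far below WT replicates 2 and 3 in all 3 Hes1 KO libraries, while Rbpj and Dtx4 differ most between the WT libraries themselves.

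Rbpj, the DNA-binding partner of the Notch intracellular domain, did not pass. It had 1518, 1236 and 1227 counts in Hes1 KO, which is 58.4, 59.8 and 52.2 scaled CPM. In WT it had 4, 1250 and 169 counts in replicates 1, 2 and 3, or 37.8 (Wilson 95% interval 14.7 to 97.2), 179 and 35.2 scaled CPM. The Hes1 KO libraries were close together and lay between WT replicates 2 and 3, which differed 5.09-fold. The log2 fold change was -0.85 (SE 0.60, adjusted p = 0.331) in the 5-library fit and -0.59 (SE 0.65, adjusted p = 0.677) with all libraries, by edgeR with Benjamini-Hochberg adjustment. The direction rested on WT replicate 2: without it the 5-library value was 0.75 and passed (adjusted p = 0.0471), and without WT replicate 3 it was -1.55 and passed the other way (adjusted p = 0.00473). In each of these fits 1 WT library is assumed to vary as the Hes1 KO libraries do, and 29% and 35.5% of all genes passed in them.

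The Mastermind-like coactivators, which bridge RBPJ and the Notch intracellular domain to histone acetyltransferases, had fold changes of unequal size: Maml2 and Maml3 fell in the 5-library fit and Maml1 did not pass. Maml2 had 411, 327 and 501 counts in Hes1 KO against 1, 1995 and 517 in WT replicates 1, 2 and 3. On the scaled level this was 15.8, 15.8 and 21.3 CPM in Hes1 KO (mean 17.6 ± 3.17 SD, n = 3) against 286 and 108 CPM in WT replicates 2 and 3. All 3 Hes1 KO libraries lay far below both of these, and the WT libraries differed 2.66-fold from each other. The 1 count in WT replicate 1 makes 9.45 CPM (Wilson 95% interval 1.67 to 53.5), below every Hes1 KO library. Maml2 fell by 3.41 on the log2 scale (SE 0.43) in the 5-library fit and was at -2.96 (SE 0.94, adjusted p = 0.31, edgeR with Benjamini-Hochberg adjustment) with all libraries.

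Maml3 had 393, 264 and 413 counts in Hes1 KO against 2, 411 and 145 in WT replicates 1, 2 and 3. The scaled levels were 15.1, 12.8 and 17.6 CPM in Hes1 KO against 58.8 and 30.2 CPM in WT replicates 2 and 3 and 18.9 CPM (Wilson 95% interval 5.18 to 68.9) in WT replicate 1. The Hes1 KO libraries thus lay below all 3 WT libraries, though within the interval of the shallow one. Maml3 fell by 1.49 (log2, SE 0.33) in the 5-library fit. It had the least firm of the calls, lost with no filter on low counts (log2 fold change -1.31, adjusted p = 0.0598), with limma-voom (-1.46, adjusted p = 0.0554) and with an offset for gene span (-0.67, adjusted p = 0.0741, edgeR with Benjamini-Hochberg adjustment where no other tool is named).

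Maml1, the first described of these coactivators, did not pass. It had 1302, 1295 and 1289 counts in Hes1 KO against 13, 797 and 398 in WT replicates 1, 2 and 3. The scaled levels were 50.1, 62.7 and 54.8 CPM in Hes1 KO against 123 (Wilson 95% interval 71.8 to 210), 114 and 82.8 CPM in WT. No Hes1 KO library reached any WT library, and the WT values lay closer to each other than those of Maml2 or Maml3. The log2 fold change was -0.75 (SE 0.22, adjusted p = 0.0693) in the 5-library fit and -0.93 (SE 0.34, adjusted p = 0.316) with all libraries, by edgeR with Benjamini-Hochberg adjustment.

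**Figure D2:**
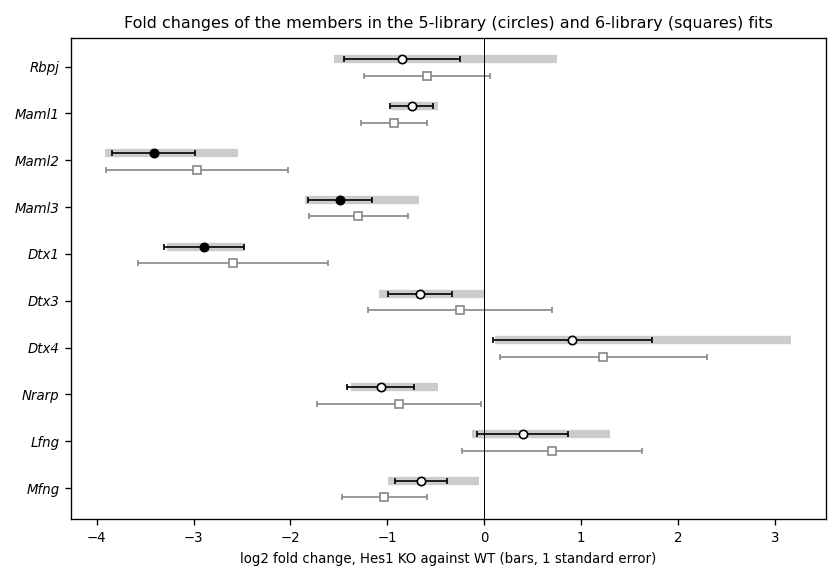
Log2 fold changes of Hes1 KO against WT (horizontal axis) with bars of 1 standard error, for the 5-library fit (circles) and the fit with all 6 libraries (squares); filled symbols passed at an adjusted p under 0.05. Grey bands give the range of the 5-library value over all alternatives tried: those of Maml1, Maml2, Maml3, Dtx1, Nrarp and Mfng stay below 0, that of Dtx4 above, and those of Rbpj, Dtx3 and Lfng reach across it.

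Shares within a gene family do not depend on how libraries are scaled. Maml2 made up 19.5%, 17.3% and 22.7% of the summed Maml counts in Hes1 KO, against 62.3% (Wilson 95% interval 60.6% to 63.9%) and 48.8% (45.8% to 51.8%) in WT replicates 2 and 3. Maml1 made up 61.8%, 68.7% and 58.5% in Hes1 KO against 24.9% and 37.5% in those WT libraries, so the leading coactivator transcript was Maml1 in Hes1 KO and Maml2 in WT replicates 2 and 3. WT replicate 1 had only 16 Maml counts, of which 1 was Maml2, a share of 6.25% (1.11% to 28.3%), so it sided with Hes1 KO. The Maml2 share did not separate the 3 Hes1 KO from the 3 WT libraries (exact permutation test, two-sided, p = 0.4). Without WT replicate 1 the groups did not overlap and p was 0.1, the smallest that 3 against 3 or 3 against 2 libraries allow in an exact permutation test. Per kilobase of exon, Maml2 was 7th of the 10 genes in each Hes1 KO library, 1st in WT replicate 2 and 3rd in WT replicate 3.

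**Figure D3:**
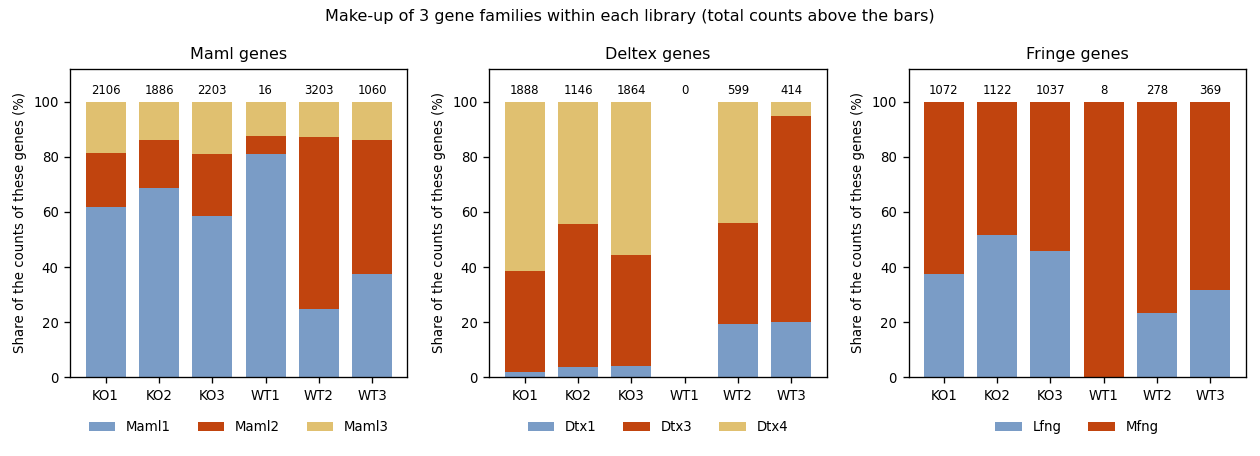
Share of the summed counts of each family (vertical axis, percent) taken by each gene in each library, with the summed counts above the bars. Only the members are counted, so Dtx2, Dtx3l and Rfng are left out of their families. The Maml2 segment takes 17.3% to 22.7% in Hes1 KO against 48.8% to 62.3% in WT replicates 2 and 3, and the Dtx1 segment 1.8% to 3.92% against 19.2% to 20%; WT replicate 1 has 16, 0 and 8 counts.

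Of the 3 Deltex genes among the members, Dtx1 fell and the other 2 did not pass. Dtx2 and Dtx3l, counted below with ubiquitin transfer, did not pass either. Dtx1, the Deltex ligase of lymphocytes and a known Notch target there, had 34, 44 and 73 counts in Hes1 KO against 0, 115 and 83 in WT replicates 1, 2 and 3. The scaled levels were 1.31, 2.13 and 3.11 CPM in Hes1 KO (mean 2.18 ± 0.90 SD, n = 3) against 16.5 and 17.3 CPM in WT replicates 2 and 3. After scaling the 2 deep WT libraries were alike, with a ratio of 0.954, but in CPM without the TMM factors the ratio was 2.89. Every Hes1 KO library lay far below both on the scaled level, while the 0 counts of WT replicate 1 allow up to 36.3 CPM (Wilson 95% upper limit). Dtx1 fell by 2.89 (log2, SE 0.41) in the 5-library fit, and its value with all libraries was -2.59 (SE 0.98, adjusted p = 0.316, edgeR with Benjamini-Hochberg adjustment). Within the 3 Deltex members its share was 1.8%, 3.84% and 3.92% in Hes1 KO against 19.2% and 20% in WT replicates 2 and 3. With 3 against 2 libraries an exact permutation test of that share gave its smallest possible p, 0.1 (two-sided). It is not a share of all Deltex counts, since Dtx2 and Dtx3l are left out. Dtx3l alone had 2281, 1457 and 1796 counts in Hes1 KO against 7, 589 and 738 in WT replicates 1, 2 and 3.

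Dtx3, a shorter Deltex protein that lacks the WWE domains of DTX1 and DTX4, had 692, 594 and 752 counts in Hes1 KO against 0, 221 and 310 in WT replicates 1, 2 and 3. The scaled levels of 26.6, 28.8 and 32.0 CPM in Hes1 KO overlapped the 31.6 CPM of WT replicate 2 and lay below the 64.5 CPM of WT replicate 3. Its log2 fold change was -0.66 (SE 0.33, adjusted p = 0.184, edgeR with Benjamini-Hochberg adjustment) in the 5-library fit, and with library size alone the direction turned, to 0.01. Dtx4 had 1162, 508 and 1039 counts in Hes1 KO against 0, 263 and 21 in WT replicates 1, 2 and 3. Its scaled levels were 44.7, 24.6 and 44.2 CPM in Hes1 KO against 37.7 and 4.37 CPM in WT replicates 2 and 3, which differed 8.62-fold. The groups overlapped, and the log2 fold change was 0.91 (SE 0.82, adjusted p = 0.438, edgeR with Benjamini-Hochberg adjustment) in the 5-library fit. It became 3.17 without WT replicate 2, with WT replicate 3 as the single WT library.

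Nrarp, the feedback inhibitor that binds the Notch and RBPJ complex, had few counts, 78, 61 and 94 in Hes1 KO against 0, 39 and 43 in WT replicates 1, 2 and 3. The scaled levels were 3, 2.95 and 4 CPM in Hes1 KO against 5.58 and 8.94 CPM in WT replicates 2 and 3. The groups did not overlap among these 5 libraries, though the Wilson 95% interval of Hes1 KO replicate 3 (3.27 to 4.89) met that of WT replicate 2 (4.09 to 7.63). The log2 fold change was -1.07 (SE 0.35, adjusted p = 0.0858) in the 5-library fit, and Nrarp passed when 10 counts were asked for in every deep library (-1.12, adjusted p = 0.0477, edgeR with Benjamini-Hochberg adjustment), where fewer genes were tested.

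The fringe genes did not pass. Lfng, the fringe enzyme whose loss disturbs somite formation and marginal zone B cells in mice, had 402, 581 and 477 counts in Hes1 KO against 0, 65 and 117 in WT replicates 1, 2 and 3. Its scaled levels of 15.5, 28.1 and 20.3 CPM in Hes1 KO lay on both sides of the 24.3 CPM of WT replicate 3 and above the 9.31 CPM of WT replicate 2. The log2 fold change was 0.40 (SE 0.47, adjusted p = 0.555), and without WT replicate 2 it turned to -0.13. Mfng, which acts beside Lfng in lymphocytes, had 670, 541 and 560 counts in Hes1 KO against 8, 213 and 252 in WT replicates 1, 2 and 3. Its scaled levels were 25.8, 26.2 and 23.8 CPM in Hes1 KO, the tightest of the 10 genes, and 75.6 (Wilson 95% interval 38.3 to 149), 30.5 and 52.4 CPM in WT. All Hes1 KO libraries lay below all WT libraries, at a log2 fold change of -0.65 (SE 0.27, adjusted p = 0.136) in the 5-library fit and of -1.03 (SE 0.44, adjusted p = 0.335, edgeR with Benjamini-Hochberg adjustment throughout) with all libraries. Of the summed Lfng and Mfng counts, Lfng made up 37.5%, 51.8% and 46.0% in Hes1 KO against 0 of 8, 23.4% and 31.7% in WT replicates 1, 2 and 3. On that share the groups did not overlap (exact permutation test, two-sided, p = 0.1). Without WT replicate 1, whose 0 of 8 allows a share of up to 32.4%, the same exact test gave p = 0.2. Rfng, the remaining fringe gene, is not in that share. It had 478, 446 and 443 counts in Hes1 KO against 1, 49 and 69 in WT replicates 1, 2 and 3. The share of Lfng among all fringe genes was not computed, so the separation holds for Lfng against Mfng only.

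Counted together, 6 of the 10 genes (Maml1, Maml2, Maml3, Dtx1, Nrarp and Mfng) had all Hes1 KO libraries below both deep WT libraries, where 26.2% of all tested genes did. None had them above, where 29.1% did. With WT replicate 1 included, 3 (Maml1, Maml3 and Mfng) lay below all WT libraries, where 5.15% did, and none lay above, where 22.5% did. In CPM without the TMM factors only Maml2 and Dtx1 kept the 5 libraries apart, where 7.54% of genes lay below, together with Lfng, which lay above, where 35.1% did. Per kilobase of exon (GENCODE M21 lengths), the mean levels in Hes1 KO were highest for Dtx3 (11.3 ± 1.05), Maml1 (10.1 ± 1.15), Mfng (8.90 ± 0.444) and Lfng (8.50 ± 2.55 scaled RPKM, SD, n = 3), whose ranges of 1 SD each overlapped that of the next in order, Dtx4 included. Dtx4 (7.24 ± 2.19) came before Rbpj (4.46 ± 0.318), Maml2 (2.67 ± 0.481), Maml3 (1.45 ± 0.228), Nrarp (1.28 ± 0.229) and Dtx1 (0.414 ± 0.171). Maml3 and Nrarp lay within their spread of each other.

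Over all tested protein-coding genes, the median fold change in the 5-library fit moved with gene length. Maml2 and Maml3 span 413 kb and 418 kb, Rbpj 102 kb, and the other 7 genes 2.58 to 37.5 kb (RefSeq, GRCm38.p6). Protein-coding genes over 100 kb took 17.1% of protein-coding counts in WT replicate 2, against 6.46% in WT replicate 3 and 10.8% in WT replicate 1. In Hes1 KO they took 7.86% to 9.87%, above WT replicate 3. In the 5-library fit 15.8% of such genes fell, against 5.1% of shorter ones. WT replicate 2 also stood apart in Malat1, a long noncoding RNA kept in the nucleus. Malat1 was at 11564 scaled CPM there against 4939 in WT replicate 3, 2088 in WT replicate 1 and 1686 to 1791 in Hes1 KO. In CPM without the TMM factors it was 13895 against 1961, 3340 and 1645 to 2074, so WT replicate 3 then lay within the Hes1 KO range. The part of the RNA make-up of WT replicate 2 in the Maml2 level was not tested. The median log2 fold change of protein-coding genes over 100 kb was -0.36, against 0.20 for shorter ones. With an offset for gene span in each library, Maml2 was at -2.54 (adjusted p = 0.0284) and Dtx1, which spans 31.7 kb, at -2.81 (adjusted p = 0.0284), and both still passed, while Maml3 did not (edgeR with Benjamini-Hochberg adjustment). Without WT replicate 2, Maml2 was at -2.55, Maml3 at -0.93 and Dtx1 at -2.93, with WT replicate 3 as the single WT library. Among long genes with 10 or more counts in both libraries, the median ratio of WT replicate 2 to WT replicate 3 was 1.35, and 13.7% had a higher ratio than the 2.66 of Maml2.

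**Figure D4:**
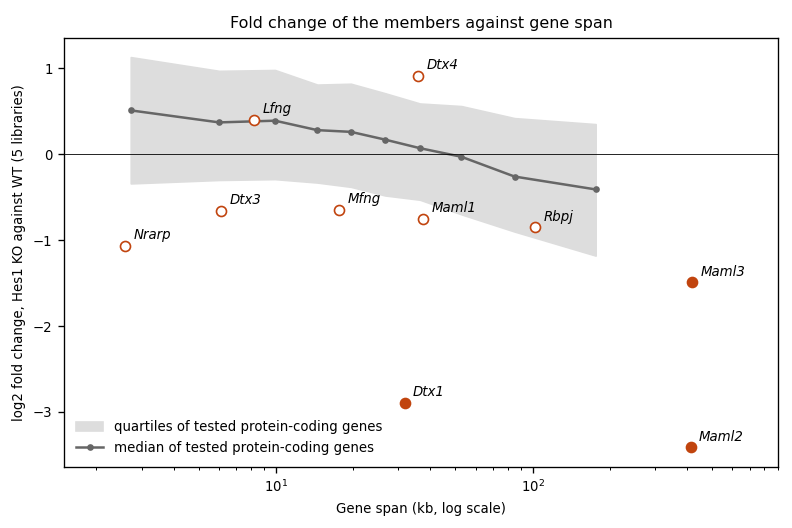
Log2 fold change of Hes1 KO against WT in the 5-library fit (vertical axis) against gene span in kb (log scale) for the 10 genes, filled where the adjusted p was under 0.05. The grey line and band are the median and quartiles of tested protein-coding genes in 10 bins of span, from a median of 0.51 in the shortest bin to -0.41 in the longest; 7 of the 10 genes (Maml1, Maml2, Maml3, Dtx1, Dtx3, Nrarp and Mfng) lie below the lower quartile of their bin, Maml2 and Dtx1 farthest, and Dtx4 lies above the upper one.

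B cell markers were set beside these genes. The 12 markers were all lower in Hes1 KO in the 5-library fit (median log2 fold change -1.78). Of them 3 fell, where 8.09% of all genes fell. In scaled CPM they summed to 825, 1017 and 1482 in the Hes1 KO libraries, against 161, 4507 and 7038 in WT replicates 1, 2 and 3, with 7 of the 12 at 0 in WT replicate 1. Set against those counts, a ratio chosen after the values were seen, Dtx1 had 1.58, 2.09 and 2.09 counts per 1000 B cell marker counts in Hes1 KO against 3.65 and 2.45 in WT replicates 2 and 3. Maml2 had 19.2, 15.6 and 14.4 in Hes1 KO against 63.4 and 15.3 in WT replicates 2 and 3, so on this measure WT replicate 3 lay within the Hes1 KO range and WT replicate 2 apart from all. Maml3 had 18.3, 12.6 and 11.9 in Hes1 KO against 13.1 and 4.29 in those WT libraries, which is no longer lower in Hes1 KO. Maml1, Dtx3, Dtx4, Nrarp, Lfng and Mfng had higher ratios in all Hes1 KO libraries than in both of those WT libraries. For Nrarp the ratios were 3.64, 2.9 and 2.7 against 1.24 and 1.27. Rbpj overlapped, at 70.8, 58.8 and 35.2 against 39.7 and 4.99. Ebf1 supplied an uneven part of the marker counts, 18195 of 31477 in WT replicate 2 against 8265 of 33835 in WT replicate 3. In Hes1 KO it supplied 3658 of 21452, 3141 of 21007 and 5920 of 34845. Ebf1 spans 390 kb and itself fell, and all these ratios depend on it, since ratios without it were not computed. Of the 10 neutrophil markers all had higher levels in Hes1 KO (median log2 fold change 3.20) and 1 rose, where 7.44% of all genes rose. Of 8 tested macrophage markers 6 rose (median 2.85). Macrophage markers took 0.169% to 0.213% of counts in Hes1 KO, 0.044% and 0.0121% in WT replicates 2 and 3, and 0.407% in WT replicate 1, above every Hes1 KO library, and none of either list rose with all 6 libraries. The part of these mixtures in the falls of Maml2, Maml3 and Dtx1 was not tested.

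The rest of the pathway was compared by role in the 5-library fit, in which 39.8% of all genes had an unadjusted p under 0.05 and 26.4% were called by DESeq2. Of 7 tested receptors and ligands none passed (1 at an unadjusted p under 0.05, 1 called by DESeq2), and the smallest p were those of the ligand genes Jag2, at a log2 fold change of -1.30 (SE 0.36), and Dll4, at -1.17 (SE 0.48). Of 10 genes of receptor cleavage, which cover the ADAM proteases and the gamma-secretase complex, none passed (2 at an unadjusted p under 0.05, 0 called by DESeq2) and 8 had higher levels, with Adam17 at 0.61 (SE 0.22) and Aph1a at 0.94 (SE 0.37). The 3 other genes of receptor glycosylation, Pofut1, Poglut1 and Rfng, had higher levels and did not pass (3 at an unadjusted p under 0.05, 1 called by DESeq2), with Poglut1 at 0.92 (SE 0.23) and Rfng, the remaining fringe, at 0.94 (SE 0.36). Of 8 genes of ubiquitin transfer and trafficking 1 fell, Fbxw7, which marks the Notch intracellular domain for degradation, by 0.81 (SE 0.20). Fbxw7 spans 164 kb and was at 9.45 scaled CPM in WT replicate 1, from 1 count, below the 29.6 to 32.4 of Hes1 KO.

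Among 11 nuclear partners of RBPJ 2 fell, beside 8.09% of all genes and 15.8% of those over 100 kb. Crebbp, the acetyltransferase CBP that MAML proteins recruit, fell by 1.57 (SE 0.22), from 360 and 266 scaled CPM in WT replicates 2 and 3 to 95.7, 102 and 105 in Hes1 KO. It spans 133 kb, and in WT replicate 1 it had 1 count, or 9.45 scaled CPM (Wilson 95% interval 1.67 to 53.5), below every Hes1 KO library, so the groups overlapped with all 6 libraries (log2 fold change -1.09, SE 0.92, adjusted p = 0.59, edgeR). Cir1, a corepressor that binds RBPJ, fell by 2.41 (SE 0.54), from 19.8 and 78.6 to 8.23, 9.83 and 8.64 scaled CPM. Its WT levels differed more from each other than the lower one did from Hes1 KO. Of 6 tested targets 2 fell. Hes1, which fell by 2.55 (SE 0.31), is the gene that the design targets, so its fall is no separate observation on targets. The parts of the deletion and of the cell mixture in that fall were not tested. Hes5, a related repressor, fell by 2.04 (SE 0.32). Hes5 was at 1.58, 1.45 and 1.40 scaled CPM in Hes1 KO against 5.87 and 6.86 in WT replicates 2 and 3, from 30 to 41 counts in each of these libraries. The largest adjusted p among these 5 genes was 0.0493, for Fbxw7 (edgeR with Benjamini-Hochberg adjustment). With all 6 libraries none of the genes of these lists passed (2 at an unadjusted p under 0.05, Jag2 and Cir1), and DESeq2 called 1 nuclear partner and 1 target.

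**Figure D5:**
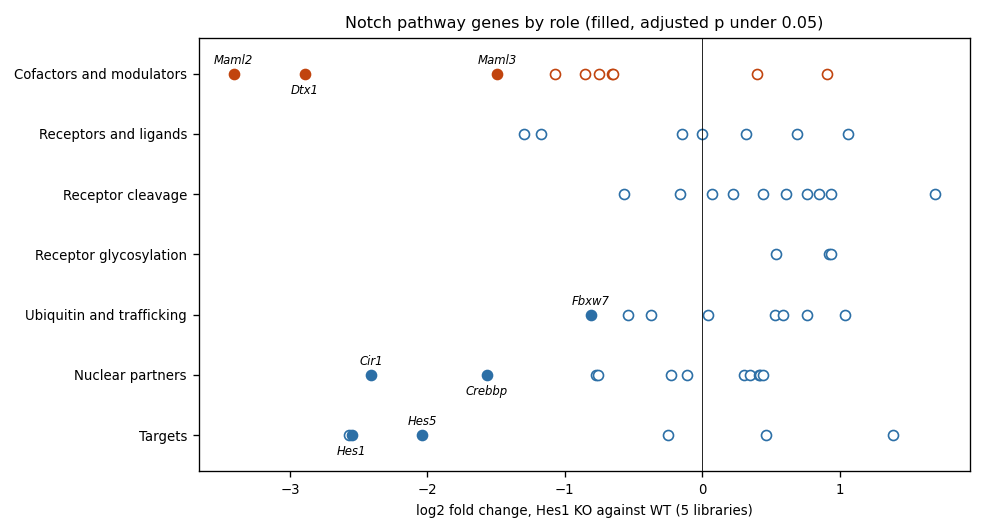
Log2 fold change of Hes1 KO against WT in the 5-library fit (horizontal axis) for the tested genes of the Notch pathway, 1 row for each role, with filled and named points at an adjusted p under 0.05. The 8 filled points all lie below 0, 3 of them among the cofactors and modulators (red), and they include Hes1, the targeted gene. The receptor cleavage and glycosylation rows lie mostly above 0.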

How the data were processed

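Polyadenylated RNA was sequenced in 3 Hes1 KO and 3 WT libraries with a stranded TruSeq kit, per the labels' protocols. The authors deposited raw read counts per gene symbol. The deposited table's name points to featureCounts, and GRCm39, edgeR and limma are listed in the submitters' processing notes. Aligner, annotation and the strand setting of the counting: not given in the sources used here. Antisense reads can thus be mixed in for Maml1 and Nrarp, which have opposite-strand neighbours in GENCODE M21. All columns of the table were matched to samples by title.

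Counts were tested with edgeR 4.0.16 (R 4.3.3): filterByExpr, TMM, the quasi-likelihood test with the legacy option off, Benjamini-Hochberg adjustment over all genes tested and a threshold of 0.05, once with all 6 libraries and once without WT replicate 1. Fold changes are log2, Hes1 KO against WT, and standard errors are the fold change divided by the root of its F statistic. Printed levels use the TMM factors of the 6 libraries. Wilson 95% intervals cover counting error only. The alternatives used limma 3.58.1, DESeq2 1.42.0 and the settings below, and the gene span offset came from a lowess of each library on log2 span. The scripts were tested on simulated data. All 10 members are named, as are, of each other Notch list, up to 4 genes that passed or else the 2 smallest p. The members and lists were chosen with earlier results of these data known.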

Additional observations from a re-analysis of the deposited data

How the results depend on the processing

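Of the 10 genes, 0 passed with all 6 libraries, 2 (Maml2 and Dtx1) with DESeq2 (814 of all genes), and 0 to 3 when each library was left out in turn, the 3 without WT replicate 1. In the 5-library fit 3 passed, against 0 with library size alone, 0 with limma-voom with quality weights, 0 with the replicate number as a block (replicate block; Maml2 -3.19, adjusted p = 0.272, edgeR), and 0 to 8 with libraries left out: 0 without each Hes1 KO library, 8 without WT replicate 2 (6 fell, Rbpj and Dtx4 rose, 29% of all genes called) and 5 without WT replicate 3 (all fell, 35.5% of all genes called), where the lone WT library is assumed to vary like the Hes1 KO libraries. The other alternatives gave 2 to 4, among them DESeq2, which called 26.4% of the genes it tested. In the 5-library fit itself 8.09% of all genes fell and 7.44% rose. Same-numbered libraries deviated together in 2 of 3 pairs (correlations 0.15, 0.01 and 0.24). Hes1 KO replicate 2 was near 0 with WT replicates 1, 2 and 3 (0.02, 0.01 and -0.04). The labels name no pairs, so the numbers were not taken as pairs, but these correlations do not exclude pairing. Log2 fold changes turned for Dtx3 with all libraries under library size alone (0.38) and the replicate block (0.26), with a range of -0.66 to 0.40 over libraries left out, and in the 5-library fit under library size alone (0.01). Over libraries left out Rbpj ranged from -1.02 to 0.54 with all 6 and from -1.55 to 0.75 in the 5-library fit, and Lfng from -0.13 to 1.30 in the latter. Maml2 ranged from -3.91 to -2.54 and Dtx1 from -3.27 to -2.47 over the 18 settings of the 5-library fit, past the threshold in 12 each, and Maml3 from -1.85 to -0.67, past it in 9. The median of all genes moved to 0.27 and 0.44 with library size alone, to 0.21 with the block and to -1.12 and -0.40 with DESeq2; DESeq2 kept genes of low counts, and its Maml2 value in the 5-library fit was -3.41, as in edgeR. Calls in the other Notch lists ranged from 0 to 4 a list in the 5-library fit and from 0 to 2 with all libraries. Beyond this the cause was not tested. At 66167 counts WT replicate 1 gave 0 counts for 5 of the 10 genes, which allows up to 36.3 scaled CPM each.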
